A study of Homo sapiens with 4 samples.

Results

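The WAVE complex and N-WASP are the activators that switch on ARP2/3, the actin-nucleating complex that starts new filaments as branches on existing ones. The 10 genes described here were chosen by symbol, as the genes of one complex and its relative, and comprise WASL, which encodes N-WASP, the WAVE proteins WASF1, WASF2 and WASF3, and the subunits CYFIP1, CYFIP2, NCKAP1, ABI1, ABI2 and BRK1. All 10 were found among the 58825 Ensembl gene rows of the count files, and all 10 passed the filter on low counts. The counts come from LoVo cells, an established human colon adenocarcinoma line in which MET, the receptor for hepatocyte growth factor, is constitutively active. In the study's methods, LoVo cells received Cas9 with a MET guide RNA and a GFP plasmid, were selected with puromycin, and MET-KO clones were picked singly and chosen by Western blot. The MET+ libraries are labelled as GFP controls with a wild-type genotype, and the MET-KO libraries as MET knock-out. Both groups were grown in the same serum-containing medium, and each was sequenced as 2 biological replicates. Whether 1 clone or more gave the MET-KO libraries is not given in the sources used here, so an effect of MET and a property of the picked cells cannot be told apart.

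In resting cells the WAVE complex holds the ARP2/3-activating tail of its WAVE protein in a closed state. Active RAC1 binds the CYFIP subunit and releases that tail, and the branched actin formed then pushes out lamellipodia and membrane ruffles. N-WASP works alone or with WIP-family partners, is opened by active CDC42 and membrane phosphoinositides, and is known for filopodia, endocytosis and cell junctions. Most subunits are encoded by paralogs, and a complex holds only one of each, so the mix of paralogs sets which versions of the complex can be assembled. WASF2, CYFIP1, NCKAP1 and ABI1 are the forms best known from many cell types, while WASF1, WASF3 and CYFIP2 are best known from brain.

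The genes were located by GENCODE version 29 on GRCh38. WASL lies on chromosome 7 (123681935 to 123749067, minus strand), WASF1 on chromosome 6 (110099819 to 110180004, minus), WASF2 on chromosome 1 (27404226 to 27490158, minus) and WASF3 on chromosome 13 (26557703 to 26688948, plus). CYFIP1 lies on chromosome 15 (22867052 to 22981063, minus) and CYFIP2 on chromosome 5 (157266079 to 157395595, plus). NCKAP1 (182909115 to 183038858, minus) and ABI2 (203328219 to 203447723, plus) share chromosome 2. ABI1 lies on chromosome 10 (26746593 to 26861087, minus) and BRK1 on chromosome 3 (10115592 to 10127190, plus).

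Levels are given as CPM, that is counts scaled to the same total in every library, after TMM normalization. In QuantSeq each transcript yields about 1 read, placed at its 3' end, so CPM values of different genes were compared directly, without division by length. The libraries held 8429142 to 10286552 counts, and 0 counts still allow a level of 0.276 to 0.363 CPM (3 counts, counting error only, since PCR copies are not separated). MET itself fell from 338 and 336 CPM in the MET+ libraries to 84.4 and 88.9 CPM in the MET-KO libraries. Where the edit lies relative to these 3' reads was not analysed here, so the fall does not check the edit itself. Of 13801 genes tested with edgeR's quasi-likelihood test, 54.1% passed a Benjamini-Hochberg adjusted p of 0.05, 27.2% higher and 26.9% lower in MET-KO cells. Intestinal epithelial markers differed between the groups, in both directions. Of 12 intestinal epithelial markers, 8 were called lower and 2 higher, CEACAM5 and GPA33 had 0 counts in both MET-KO libraries, KRT20 had 0 in both MET+ libraries and CDX1 had 0 in all 4. The 2 higher markers were KRT20 and CDX2 (log2 fold change 1.04), and KRT8 was not called. The epithelial list summed to 9705 and 9742 CPM in MET+ and to 8321 and 7337 CPM in MET-KO cells. Most of that sum was KRT18, at a mean of 6020 CPM (MET+) and 4879 CPM (MET-KO). The markers of other tissues were scarce, with 0 to 1.85 CPM per library in sum for the 6 blood cell and for the 4 endothelial markers and 1.64 to 4.24 CPM for the 6 fibroblast markers. The defining markers PTPRC, CD3E, CDH5 and DCN were at 0 in all 4 libraries, and the fibroblast difference came mainly with COL3A1, at 4 and 5 counts (MET+) against 24 and 26 (MET-KO). The part of these marker differences in the results below was not tested.

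In MET-KO cells, 5 of the 10 genes rose, namely WASF1, WASF3, CYFIP2, NCKAP1 and ABI2, and CYFIP1 fell. WASL, WASF2, ABI1 and BRK1 did not pass the test. The 6 calls are 60% of the members, near the 54.1% of all tested genes, so the number of calls alone did not set these genes apart. With DESeq2's Wald test 5 members passed, where 41.7% of all tested genes did. Rises made up 5 of 10 against 27.2% of all genes, and the median log2 fold change was 0.26 against 0.01 over all tested genes. The libraries of the groups did not overlap for 8 of the 10, where 75.6% of all tested genes behaved this way. WASF1, WASF3 and ABI2 were the 3 members with a log2 fold change of 1 or more in size, and all 3 rose, where 14.5% of all tested genes were called higher at that size.

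**Figure D1:**
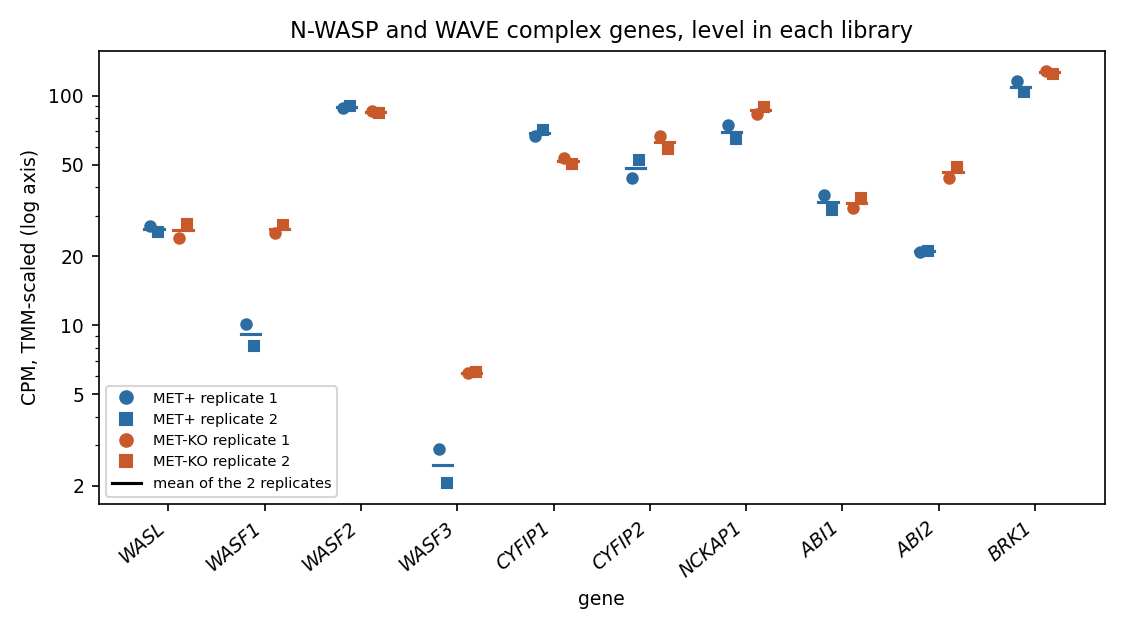
Level of each gene in the 4 libraries, in TMM-scaled CPM on a log axis, with 1 point per library and a short line for the mean of the 2 replicates. WASF1, WASF3 and ABI2 lie well apart between MET+ and MET-KO libraries, while the points of WASL and ABI1 overlap.

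The promoters of the 3 genes that rose by at least 1 on the log2 scale, and of ABI1, the paralog of ABI2 that did not pass the test, are printed because these genes changed unlike others of their families. Each runs from 250 bases before to 50 after a transcription start of RefSeq on GRCh38.p14, 5' to 3' along the strand of the gene. Capitals mark matches, on either strand, to GGAATG (the core bound by TEAD factors, the partners of YAP1), CCGGAAG (ETS factors), CCAAT (the CCAAT box) and GGGCGG (the GC box). The windows are chr6:110179621-110179920 (minus) for WASF1, chr13:26557433-26557732 (plus, the first of 2 entries) for WASF3, chr2:203328144-203328443 (plus) for ABI2 and chr10:26860909-26861208 (minus) for ABI1.
WASF1: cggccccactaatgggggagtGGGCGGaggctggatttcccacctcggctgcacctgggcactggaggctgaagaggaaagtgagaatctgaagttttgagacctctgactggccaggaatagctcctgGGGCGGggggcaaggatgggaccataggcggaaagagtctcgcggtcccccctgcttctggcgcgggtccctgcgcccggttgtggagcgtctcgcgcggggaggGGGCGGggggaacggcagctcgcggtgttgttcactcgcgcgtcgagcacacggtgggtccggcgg
WASF3: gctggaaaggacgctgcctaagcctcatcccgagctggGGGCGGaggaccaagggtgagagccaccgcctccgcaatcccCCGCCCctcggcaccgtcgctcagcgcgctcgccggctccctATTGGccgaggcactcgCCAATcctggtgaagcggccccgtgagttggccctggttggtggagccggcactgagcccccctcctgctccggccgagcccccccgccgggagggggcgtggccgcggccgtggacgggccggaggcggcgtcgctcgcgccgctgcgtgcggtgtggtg
ABI2: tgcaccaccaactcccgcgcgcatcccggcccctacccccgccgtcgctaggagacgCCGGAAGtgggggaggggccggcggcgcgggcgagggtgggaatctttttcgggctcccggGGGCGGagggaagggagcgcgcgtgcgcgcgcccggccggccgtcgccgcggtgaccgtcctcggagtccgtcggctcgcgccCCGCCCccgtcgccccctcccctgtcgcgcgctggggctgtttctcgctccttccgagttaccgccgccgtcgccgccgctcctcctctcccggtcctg
ABI1: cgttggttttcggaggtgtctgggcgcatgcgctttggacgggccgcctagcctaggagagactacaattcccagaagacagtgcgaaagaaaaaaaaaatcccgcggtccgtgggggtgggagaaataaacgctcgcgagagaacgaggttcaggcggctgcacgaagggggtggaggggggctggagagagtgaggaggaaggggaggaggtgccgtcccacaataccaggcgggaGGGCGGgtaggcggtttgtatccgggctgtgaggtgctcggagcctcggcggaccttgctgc
WASF1 held 3 GC boxes, WASF3 2 GC boxes and 2 CCAAT boxes, ABI2 2 GC boxes and 1 ETS match, and ABI1 1 GC box. None of the 4 windows held GGAATG. Over 35116 promoter entries, 14% held GGAATG, 10.3% CCGGAAG, 34.6% CCAAT and 45% GGGCGG. Of the 9 members with an entry, only CYFIP1 held GGAATG, in 1 of its 4 entries, and only WASL and ABI2 held CCGGAAG. These matches describe the letters in the windows and nothing about binding.

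The WAVE proteins carry the tail that binds and activates ARP2/3. WASF1 (WAVE1, ENSG00000112290) was counted 84 and 79 times in MET+ and 257 and 298 times in MET-KO libraries, or 10.2 and 8.11 against 25.2 and 27.4 CPM. Both MET-KO libraries stood far above both MET+ libraries. The log2 fold change was 1.53 (SE 0.18, adjusted p = 5.05e-09 by the quasi-likelihood test of edgeR with the Benjamini-Hochberg method over all tested genes, as for every adjusted p below), and it lay between 1.37 and 1.70 when each library was left out in turn. WASF3 (WAVE3, ENSG00000132970) was the least abundant member, at 24 and 20 counts against 63 and 68, or 2.90 and 2.05 CPM (MET+) against 6.18 and 6.26 CPM (MET-KO). Again the groups lay clearly apart. The log2 fold change was 1.34 (SE 0.33, adjusted p = 0.0009), the widest error of the 10 genes. WASF2 (WAVE2, ENSG00000158195), which drives lamellipodia in most cells, had close levels in all 4 libraries, at 88.3 and 89.7 CPM (MET+) and 85.4 and 84.3 CPM (MET-KO). The difference of -0.07 on the log2 scale (SE 0.10, adjusted p = 0.579) did not pass the test and was 0.032 when libraries were scaled by their totals alone, a setting that raised the median of all genes from 0.01 to 0.11.

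The mix of WAVE genes shifted towards WASF1 and WASF3. WASF2 took 87.1% and 89.8% of all WASF counts (MET+) and 73.1% and 71.4% (MET-KO). WASF1 took 10.0% and 8.12% in MET+ and 21.6% and 23.3% in MET-KO cells, and WASF3 went from 2.86% and 2.06% to 5.29% and 5.31%. WASF2 remained the major form in all 4 libraries. The WASF genes summed to 101 ± 1.07 CPM (MET+; SD, n = 2) and to 117 ± 0.837 CPM (MET-KO; SD, n = 2). Entered as a single row of the edgeR fit, the family had a log2 fold change of 0.22 (SE 0.10, adjusted p = 0.0496), at the edge of the threshold. For the share of a single paralog, the smallest p that 2 libraries against 2 allow in the two-sided exact permutation test is 0.333, and each of the 7 paralog shares reached it.

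CYFIP1 and CYFIP2 encode the subunit that binds active RAC1, and also bind the RNA-binding protein FMRP. They moved in opposite directions. CYFIP1 (ENSG00000273749) stood at 66.5 and 70.8 CPM (MET+) and at 53.3 and 50.4 CPM (MET-KO), with both MET-KO libraries below both MET+ libraries. CYFIP2 (ENSG00000055163) went the other way, from 44.0 and 52.4 CPM to 66.5 and 58.7 CPM, again without overlap but with a wider spread. The log2 fold change of CYFIP1 was -0.41 (SE 0.11, adjusted p = 0.00186), and it kept its call when each library was left out in turn (-0.45 to -0.36). That of CYFIP2 was 0.37 (SE 0.12, adjusted p = 0.00699). The CYFIP2 call was lost without replicate 1 of MET+ (0.26, adjusted p = 0.124) and without replicate 1 of MET-KO cells (0.28, adjusted p = 0.101).

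The order of the CYFIP pair turned, while a change of their sum was not detected. Together they reached 117 ± 9.07 CPM (MET+) and 114 ± 7.63 CPM (MET-KO; SD over 2 libraries), with overlapping libraries and a family log2 fold change of -0.03 (SE 0.10, adjusted p = 0.808), which turned to 0.070 with libraries scaled by their totals alone. CYFIP1 supplied 60.2% and 57.5% of the CYFIP counts (MET+) and 44.5% and 46.2% (MET-KO). CYFIP2 accordingly went from 39.8% and 42.5% to 55.5% and 53.8%, and became the more abundant of the pair in both MET-KO libraries.

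**Figure D2:**
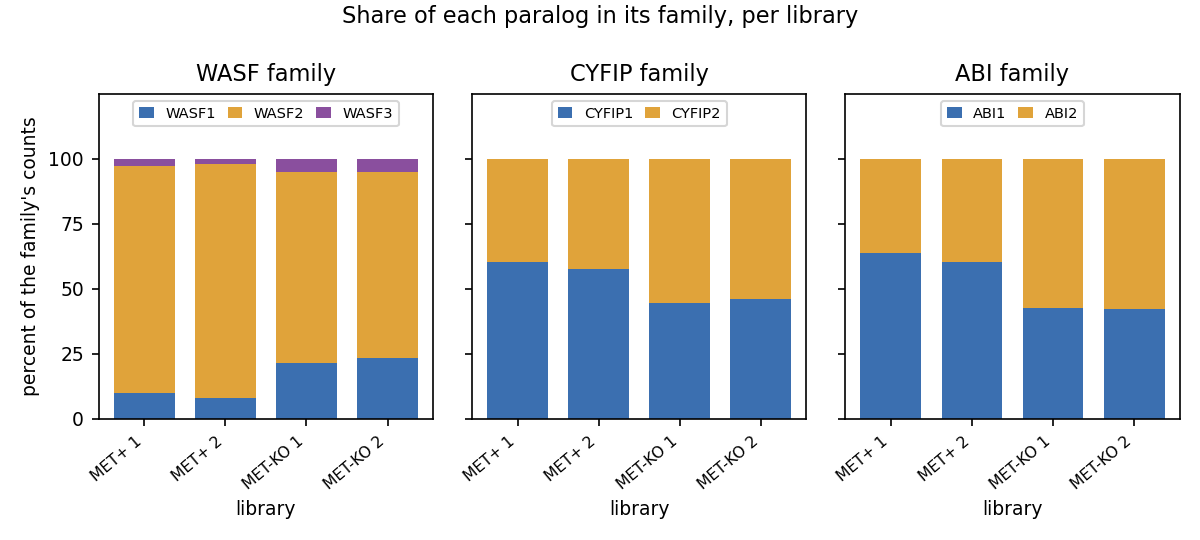
Share of each paralog in the counts of its family, as percent per library, for the WASF, CYFIP and ABI families. WASF2 stays the major WASF form in every library, whereas CYFIP2 and ABI2 pass 50% of their families in both MET-KO libraries and in neither MET+ library.

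The ABI subunits link the complex to ABL kinases and membrane signals. ABI2 (ENSG00000138443) rose from 20.9 and 21.0 CPM to 43.9 and 49.0 CPM, with both MET-KO libraries far above both MET+ libraries. Its log2 fold change was 1.15 (SE 0.13, adjusted p = 4.18e-09), between 1.07 and 1.22 when each library was left out. ABI1 (ENSG00000136754) lay at 36.9 and 31.7 CPM (MET+) and at 32.5 and 36.0 CPM (MET-KO), the latter inside the range of the former. The fitted difference was 0.00 on the log2 scale (SE 0.13, adjusted p = 0.993). ABI1 supplied 63.8% and 60.1% of the ABI counts in MET+ but 42.5% and 42.4% in MET-KO libraries, where ABI2 held 57.5% and 57.6%. The ABI sum rose from 55.3 ± 3.54 to 80.7 ± 6.09 CPM (SD over 2 libraries). The family difference was 0.55 on the log2 scale (SE 0.11, adjusted p = 5.69e-05) with the family as a single row of the edgeR fit.

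NCKAP1 and BRK1 are the subunits with no paralog counted above 1 read per library. NCKAP1 (NAP1, ENSG00000061676), the scaffold that pairs with CYFIP, measured 74.8 and 64.7 CPM (MET+) and 83.1 and 89.4 CPM (MET-KO). The groups did not overlap, and the log2 fold change was 0.31 (SE 0.11, adjusted p = 0.0132). This was the least secure of the 6 calls. It was lost without replicate 2 of MET+ (0.20, adjusted p = 0.243), without replicate 2 of MET-KO cells (0.26, adjusted p = 0.0875) and with DESeq2's Wald test (0.31, adjusted p = 0.0576). BRK1 (HSPC300, ENSG00000254999), a short protein that stabilizes the complex, was the most abundant member, at 116 and 103 CPM (MET+) and 127.6 and 124.7 CPM (MET-KO). The groups did not overlap. Its log2 fold change was 0.20 (SE 0.10, adjusted p = 0.0736), and it passed the threshold with libraries scaled by their totals alone (0.30, adjusted p = 0.00874), when every library had to hold 10 counts (0.24, adjusted p = 0.03) and after thinning to the smallest library (0.24, adjusted p = 0.0474). It did not pass in the other 8 fits, with 0.12 (adjusted p = 0.508) without replicate 2 of MET+ and an adjusted p of 0.165 with DESeq2's Wald test.

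WASL (ENSG00000106299) was counted 223 and 248 times (MET+) and 245 and 301 times (MET-KO), or 26.9 and 25.5 against 24.0 and 27.7 CPM. The groups overlapped. The log2 fold change was -0.02 (SE 0.14, adjusted p = 0.937) and turned to 0.087 with libraries scaled by their totals alone, without passing the test. The blood-cell counterparts of these genes were nearly silent. NCKAP1L (HEM1) had 0 or 1 count and ABI3 0 to 2 counts in each library. WAS, the blood-cell relative of N-WASP, had 7 and 17 counts (MET+) and 8 and 19 (MET-KO; log2 fold change -0.05, SE 0.54, adjusted p = 0.95).

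The order of the levels, in CPM, differed between the groups. CYFIP1 and CYFIP2 changed places, as did ABI1 and ABI2, WASL and ABI2, WASF1 and WASL, and WASF2 and NCKAP1. In MET+ cells it ran from BRK1 (110 CPM) through WASF2, NCKAP1, CYFIP1, CYFIP2, ABI1, WASL, ABI2 and WASF1 to WASF3 (2.48 CPM). Among neighbours in that order, only NCKAP1 and CYFIP1 had overlapping ranges. In MET-KO cells the order was BRK1 (126 CPM), NCKAP1, WASF2, CYFIP2, CYFIP1, ABI2, ABI1, WASF1, WASL and WASF3 (6.22 CPM). There NCKAP1 and WASF2 overlapped, as did WASF1 and WASL, whereas in MET+ cells WASF1 stood at 9.13 and WASL at 26.2 CPM.

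Whole chromosomes were shifted between these groups, so each member was set beside its chromosome and beside the tested genes whose centres lay within 10 Mb. WASF1, WASF3 and ABI2 lay 1.35, 1.19 and 1.15 above the medians of their neighbourhoods on the log2 scale, though other genes of their chromosomes rose more. The chromosome medians were 0.080 for chromosome 6, 0.092 for chromosome 13 and 0.032 for chromosome 2, and the 3 genes lay at percentiles 89.1, 88.3 and 87.0 of the other tested genes of their chromosomes. CYFIP2 rose on chromosome 5, where 25.5% of the other genes had a fold change above 0 and the median was -0.43. Its 69 neighbours within 10 Mb had a median of -0.51, so that CYFIP2 lay 0.88 above them on the log2 scale. CYFIP1 did not stand apart from its chromosome as a whole. The other genes of chromosome 15 had a median of -0.43, CYFIP1 lay at percentile 52.8 of them, and its 25 neighbours had a median of -0.76, which CYFIP1 exceeded by 0.36 (by 0.027 within 20 Mb). WASL was the opposite case on chromosome 7, the chromosome of MET, where 77.5% of the other genes were above 0 and the median was 0.50. WASL at -0.02 lay at percentile 21.7 of that chromosome and 0.39 below the median of its 68 neighbours. Set against only those neighbours that were not called, the distances were 0.47 for CYFIP2 and -0.14 for WASL. Leaving out called genes pulls the median of the neighbours towards no change, so these smaller distances are no separate check. NCKAP1, ABI1, WASF2 and BRK1 lay 0.42, 0.23, -0.05 and 0.25 from the medians of their neighbourhoods. The part of the chromosome shifts in the member values was not tested.

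**Figure D3:**
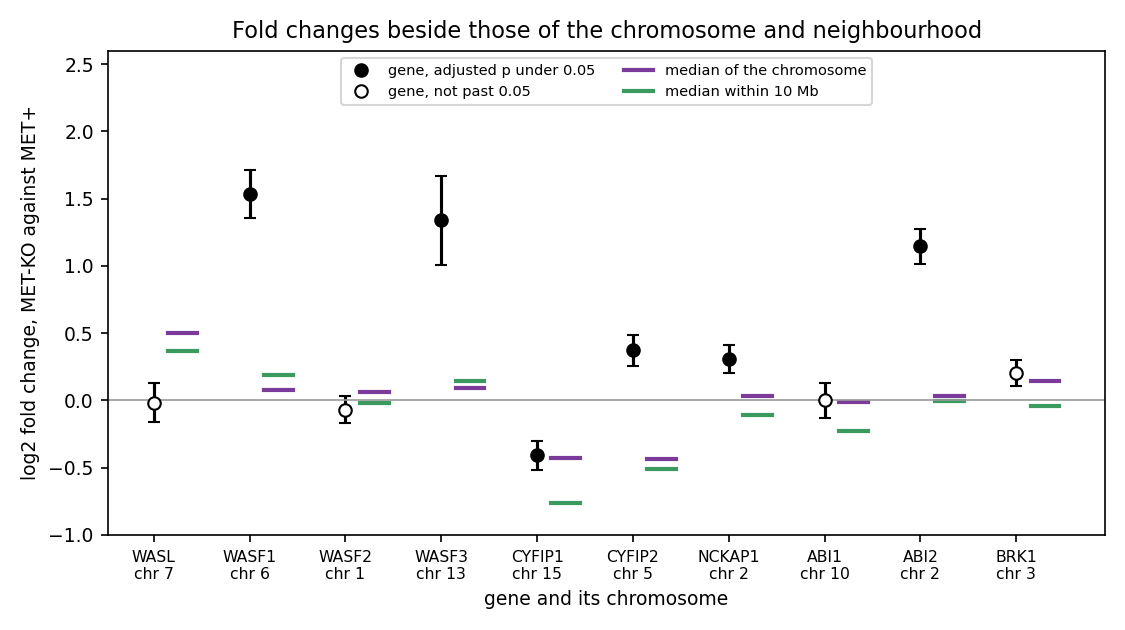
Log2 fold change of each gene between MET-KO and MET+ cells (points, bars of 1 standard error, filled where the adjusted p was under 0.05) beside the median of its chromosome and of the tested genes within 10 Mb. CYFIP2 lies above shifted surroundings on chromosome 5 and WASL below those on chromosome 7, while CYFIP1 sits close to the median of chromosome 15.

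In 4 members the 3' end, where QuantSeq reads fall, lies inside a tested coding gene of the other strand. ABI2 shares 8870 exonic bases with RAPH1, at 139 and 127 counts (MET+) and 75 and 66 (MET-KO; log2 fold change -1.15, SE 0.22, adjusted p = 3.23e-05), opposite to ABI2. CYFIP1 shares 1333 exonic bases with NIPA2, which fell as CYFIP1 did (log2 fold change -0.996, SE 0.10, adjusted p = 3.4e-10). ABI1 shares 206 bases with PDSS1 (-0.78, SE 0.22, adjusted p = 0.00293) and CYFIP2 shares 62 bases with ADAM19, at 83 and 94 counts (MET+) and 1 and 0 (MET-KO). The strand setting of the counting is not given in the sources used here, and how reads in these overlaps were assigned was not tested. WASL, WASF1 and BRK1 overlap no other annotated gene. The annotated pseudogenes WASF1P1, ABI1P1 and BRK1P2 had 0 counts in all libraries.

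Genes around the members in the pathway are given for the direct activators RAC1 and CDC42 and for 5 lists. RAC1, the direct activator of the WAVE complex, rose by 0.37 on the log2 scale (SE 0.09, adjusted p = 0.000666). It lies on the upshifted chromosome 7, whose tested genes had a higher median, 0.50. CDC42, the activator of N-WASP, measured 233.6 and 233.9 CPM (MET+) and 209.7 and 210.5 CPM (MET-KO; log2 fold change -0.15, SE 0.09, adjusted p = 0.15).

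The next list held 22 genes, namely exchange factors that load RAC or CDC42 with GTP and the ELMO partners of DOCK proteins. Of these, 18 were tested, 5 rose and 3 fell, or 44.4% beside 54.1% of all genes. The CDC42 exchange factor FGD4, on chromosome 12, fell from 30.0 to 5.74 CPM (log2 fold change -2.38). The RAC activator DOCK4, on chromosome 7, rose from 4.76 to 21.0 CPM (log2 fold change 2.13). Chromosome 12 was downshifted, with a median of -0.32 and 33.7% of its tested genes above 0. Chosen after their values were seen, the RAC activators TIAM1 and TRIO fell, from 5.12 to 0.386 CPM and from 19.3 to 12.1 CPM (log2 fold changes -3.70 and -0.68). TIAM1 had 6 and 2 counts in the MET-KO libraries, so the size of its fall is loosely fixed (SE 0.52). Among the 5 genes that rose were TIAM2, the paralog of TIAM1, from 4.15 to 8.18 CPM, and ITSN1, from 24.0 to 42.4 CPM (log2 fold changes 0.98 and 0.82). TIAM1 lies on chromosome 21 (median 0.30) and TRIO on the downshifted chromosome 5. Of the adaptors and membrane partners, 19 of 25 tested genes were called, 9 higher and 10 lower, or 76% beside 54.1% of all genes. SRGAP2, which bends membranes and restrains RAC1, rose from 11.9 to 44.2 CPM, although near-identical copies of this gene may share its reads. The kinase gene ABL2 rose from 19.1 to 49.9 CPM, and VASP, which elongates filaments at lamellipodia, fell from 147 to 59.8 CPM (log2 fold changes 1.89, 1.38 and -1.30).

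ARP2/3 itself showed 5 subunit genes higher and 2 lower among 10 tested, or 70% called beside 54.1% of all genes, with a median of 0.23. ACTR3B, a variant of the ARP3 subunit, rose from 22.3 to 48.7 CPM (log2 fold change 1.13, SE 0.13, adjusted p = 4.41e-09) and ARPC1A from 75.9 to 119 CPM, while ARPC3 fell from 220 to 143 CPM (log2 fold change -0.62, SE 0.09, adjusted p = 8.19e-07). Of the 5 higher genes, 3 (ACTR3B, ARPC1A and ARPC1B) lie on the upshifted chromosome 7. ARPC3, which fell, lies on the downshifted chromosome 12. The number of ARP2/3 calls depended on replicate 2 of MET+, without which 4 in place of 7 were left.

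The other nucleation-promoting factors gave 2 higher and 3 lower among 11 tested, or 45.5% called beside 54.1% of all genes. WHAMM and JMY, which act on internal membranes and stress-induced filaments, fell from 30.6 to 16.6 and from 44.7 to 28.6 CPM (log2 fold changes -0.88 and -0.65). WHAMM lies on chromosome 15 and JMY on chromosome 5, the downshifted chromosomes of CYFIP1 and CYFIP2. WASHC2C, a subunit of the endosomal WASH complex, fell from 15.9 to 10.0 CPM, although its near-identical copy WASHC2A may share reads with it. In the list of inhibitors and branch-disassembly factors, 5 rose and 1 fell of 11 tested, or 54.5% beside 54.1% of all genes. That list also counted AGAP1, which is not established as such a factor and was not called (log2 fold change 0.02). Above a mean log2 CPM of 3, the largest changes were those of GMFB, which removes branches, from 48.4 to 83.7 CPM, CORO2A from 13.7 to 23.5 CPM and CORO1C from 75.4 to 121 CPM (log2 fold changes 0.79, 0.78 and 0.69). GMFB rose on chromosome 14 (median -0.51) and CORO1C on chromosome 12, both downshifted. None of the called genes of this list changed by 1 or more on the log2 scale.

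**Figure D4:**
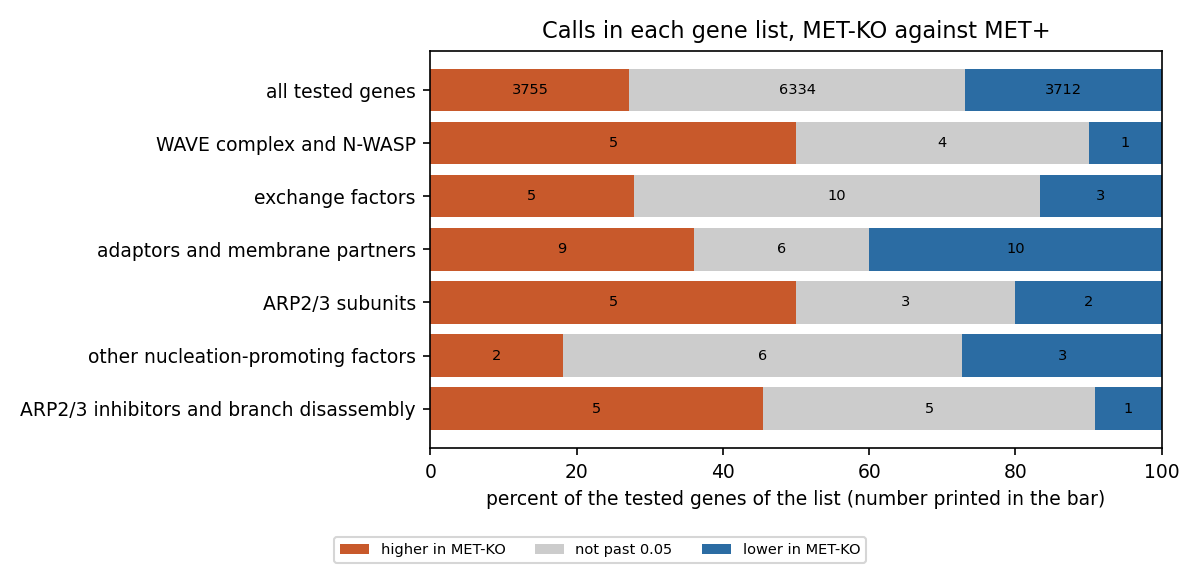
Share of the tested genes of each list that were called higher, not called or called lower in MET-KO against MET+ cells, with the number of genes in each segment. The WAVE complex and N-WASP genes had 5 higher, 4 not called and 1 lower, beside 3755, 6334 and 3712 of all tested genes.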

How the data were processed

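LoVo MET+ and MET-KO cells (2 biological replicates each) were profiled with the QuantSeq 3' FWD kit. The authors deposited 1 table per library of read numbers per gene, as raw counts without normalization. The submitters' processing notes name bcl2fastq, cutadapt 1.16, FastQC 0.11.7, MultiQC 1.5, STAR 2.5.4a, featureCounts 1.6.2, DESeq2 1.18.1 and GRCh38, without settings. Names came from GENCODE 29, which held 58552 of 58825 gene IDs. The 99 spike-in rows had 0 counts and were left out.

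Counts were analysed in R 4.3.3 with edgeR 4.0.16 (filterByExpr, TMM, group as the only term, quasi-likelihood test, Benjamini-Hochberg adjustment over 13801 genes, threshold 0.05). The standard error is the absolute log2 fold change over the root of F. The common biological coefficient of variation was 0.0787. CPM used the TMM-scaled library size (factors 0.949 to 1.06). Replicates of a group differed by more than counting noise (chi-square per degree of freedom 5.45 and 4.86). That the replicates came from separate cultures is not given beyond the label, so p-values measure the spread between these libraries. Family sums were compared by an exact permutation test and as rows of the same fit.

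Members and lists were chosen with earlier results of these data known. Named were all members, their blood-cell paralogs, MET, RAC1, CDC42 and, per list, every called gene where at most 3 were called, otherwise the 3 called genes with the largest change among those without overlap and above a mean log2 CPM of 3. Some results that this rule would name are not reported here. Genes overlapping a member were named by annotation. The alternatives were other scalings, filters, DESeq2 1.42.0, the replicate number as a block, thinning, a fold threshold and leaving out each library. The family fit was chosen after seeing the data. On data simulated with the depth and spread of these libraries (13467 genes, 191 changed), edgeR recovered 160 and called 6 unchanged genes. The simulation held far fewer changed genes than the 54.1% called here, and no change under 1 on the log2 scale. It therefore does not measure false calls where so many genes change. Nor does it measure the recovery of smaller changes, such as those of CYFIP1, CYFIP2 and NCKAP1. Promoters came from RefSeq and matched 9 of 10 members (all but WASF2). Plots used matplotlib 3.10.9 under Python 3.11.15.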

Additional observations from a re-analysis of the deposited data

How the results depend on the processing

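WASF1, WASF3, ABI2, CYFIP1 and MET kept their direction and their call under all 11 alternative fits. The number of member calls was 6 and lay between 5 and 7 in those fits, and 3 remained when a log2 change of at least 1 was also required. Under that requirement 3355 of all genes were called, and 4 exchange factors, 9 adaptors, 1 ARP2/3 subunit, 1 other nucleation-promoting factor and 0 inhibitors. DESeq2's Wald test called 5760 genes against 7467, and lost NCKAP1 (0.31, adjusted p = 0.0576). Scaling by library totals alone gave 0.087 for WASL, 0.032 for WASF2, 0.30 for BRK1 (now called), 0.32 for the WASF sum, 0.070 for the CYFIP sum and 0.65 for the ABI sum, and moved the share of higher genes among all calls from 50.3% to 59.2%. Requiring 10 counts in every library gave 0.023 for WASL and 0.24 for BRK1 (called). Thinning to the smallest library gave 0.025 for WASL, 0.24 for BRK1 (called) and 0.24 for the WASF sum. With no filter ABI1 was at -0.00359. WASL, WASF2 and ABI1 passed the test in none of these fits. Leaving out each library in turn gave log2 changes of -0.12 to 0.079 for WASL, -0.11 to 0.11 for ABI1, 0.26 to 0.50 for CYFIP2, 0.20 to 0.42 for NCKAP1, 0.20 to 0.24 for the WASF sum and -0.11 to 0.043 for the CYFIP sum, and 4 to 7 ARP2/3 calls. In these fits the lone library of a group is assumed to vary like the other group. The paired analysis, with the replicate number as a block, called 7055 genes and 6 members and changed no member's call. Same-numbered libraries did not deviate together (r = -0.03 over 13801 genes). The labels link them by number only, and this correlation cannot tell whether they were prepared together. Distances from the neighbourhood median moved within 5 Mb (WASL -0.88, CYFIP2 1.06, NCKAP1 0.20) and within 20 Mb (ABI1 0.058, BRK1 0.070), without a change of sign, and for CYFIP1 fewer than 10 genes were left within 5 Mb or among those not called. Depth limits WASF3, with 20 to 68 counts per library, most.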
